A study of Mus musculus with 20 samples.

Results

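The genes described here belong to the cellular response to low oxygen and to glycolysis, and they were followed in Hepa1-6 cells, a mouse hepatoma line of C57L origin, with TGFβ1 and without it. The set has 38 genes given by symbol and chosen with earlier results of these data known, from glucose uptake to lactate together with the hypoxia-inducible factor (HIF) subunits, the prolyl hydroxylases and further HIF targets. Each gene was read from its probe set with the highest mean over the 20 arrays, and 34 of the 38 had a probe set annotated to that gene alone, out of 18193 genes in all. Gpi1, Eno1, Gapdh and Bnip3l were not analysed here, the last pair having 3 probe sets each that were all shared with other genes.

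Treated cultures received 1 ng/ml TGFβ1 and basal cultures received none, and RNA was taken at 0, 1, 3, 6 and 10 h, giving 10 groups of 2 biological replicates. All cultures, controls included, had been without growth factors for 4 h at the start. The 0 h cultures of both arms are described as equivalent in the labels. All results are for 1 cell line, and p-values measure the spread between these duplicate cultures only.

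HIF is a transcription factor made of an oxygen-sensitive alpha subunit, encoded by Hif1a or Epas1, and the constant partner encoded by Arnt. Prolyl hydroxylases of the Egln family mark the alpha subunit for destruction when oxygen is present, so that its amount is set largely at the protein level, which these arrays do not measure. Stable HIF binds a short core motif and raises transcription of glucose transporters, glycolytic enzymes, the pyruvate dehydrogenase kinase gene Pdk1 and genes of angiogenesis, mitophagy and collagen modification.

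Values are the authors' RMA log2 expression values, in which a difference of 1 is a doubling and a value is read against the rest of its array. Array medians lay between 5.15 and 5.21, and duplicates correlated at 0.9958 to 0.9971. All 9 measured markers of hepatoma and liver parenchyma lay above the highest array median, with mean levels over the list of 9.19 to 9.32 in treated arrays and 9.18 to 9.55 in basal arrays. Of these markers, Afp was lower by a log2 difference of -0.46, Alb by -0.39, Fgb by -0.78 and Krt18 by -0.13 at 6 h in treated cells, and Krt8 was higher by 0.35. Mean levels over 8 endothelial markers were 3.81 to 4.10 in treated and 3.89 to 4.11 in basal arrays, and those over 9 macrophage and leukocyte markers 5.06 to 5.29 in treated and 5.13 to 5.32 in basal arrays. Stellate cell and fibroblast markers, 10 in number, averaged 5.35 to 5.56 in treated and 5.33 to 5.49 in basal arrays, and 5 cholangiocyte markers 7.43 to 7.86 in treated and 7.35 to 7.56 in basal arrays. Above the highest array median lay 1 of the 8 endothelial, 4 of the 9 macrophage, 4 of the 10 stellate and 4 of the 5 cholangiocyte markers. At 6 h Krt7 was higher by 1.17, Col1a1 by 0.94 and Cd14 by 0.35 in treated cells. The mean level of Col1a1 was not above that median. The part of these marker differences in the results was not tested. With whole-culture RNA, fewer cells of a kind and less RNA per cell cannot be told apart. Of the 34 members, 5 had a mean level under the highest array median: Slc16a3, Car9, Slc2a3, Pfkp and Adm.

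At 0 h no gene differed between the arms past an adjusted p of 0.05 by limma's test over all genes with Benjamini-Hochberg adjustment, the threshold used throughout. Of the 34 members 0 were higher and 0 lower in treated cultures, against 0% of all genes in either direction. At an unadjusted p under 0.05, 1 member was higher and 2 were lower, and over all genes 740 passed. The lower pair was Hif1a, with a log2 difference of -0.19 (95% interval -0.33 to -0.06), and Arnt, with -0.27 (-0.48 to -0.06).

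Without TGFβ1, 6 of 10 other HIF targets and 10 of 18 glycolytic genes were higher at 10 h than at 0 h, against 13.3% of all genes, and 0 of the 34 members were lower past the threshold, against 12.8%. The HIF targets that did not pass were Adm, Car9, Higd1a and Ndrg1, with log2 differences of 0.09, -0.12, -0.10 and -0.16. Bnip3, which encodes a mitochondrial protein of mitophagy and cell death, had 12.41 and 12.37 in basal cultures at 10 h, against 9.86 and 9.57 at 0 h. That is 6.38-fold higher (log2 difference 2.67 ± 0.09, SE, adjusted p = 3.31e-14), and the arrays of the 2 times did not overlap. Aldoc, an aldolase, was 6.21-fold higher (2.63 ± 0.08), and Ankrd37, an ankyrin-repeat gene known as a HIF target, was 5.00-fold higher (2.32 ± 0.14). The prolyl 4-hydroxylase genes P4ha1 and P4ha2, whose products modify collagen, were 2.44-fold and 2.12-fold higher. The angiogenic factor gene Vegfa was 2.08-fold higher, the histone demethylase gene Kdm3a 1.94-fold, and the glucose transporter gene Slc2a1 1.79-fold. Egln3 was 1.76-fold, the phosphofructokinase gene Pfkl 1.70-fold, Hk2, a hexokinase, 1.63-fold, Pdk1 1.54-fold and Aldoa 1.51-fold higher. Tpi1, Pgk1, Ldha and Pgam1, which encode enzymes of the lower pathway, were 1.27-fold, 1.14-fold, 1.12-fold and 1.12-fold higher.

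The count grew with time in basal cultures. At 1 h, 1 of 34 members was higher and 1 lower than at 0 h, against 0.104% and 0.0824% of all genes. At 3 h 8 were higher and 1 lower, against 4.95% and 3.21% of all genes. At 6 h 17 were higher and 3 lower, against 10.4% and 10.3%, and at 10 h 20 were higher and 0 lower, against 13.3% and 12.8%. The 10 h count of 0 lower compares with 2 at an unadjusted p under 0.05, and it was 2, Pkm and Ndrg1, without basal 0 h replicate 2. The median log2 difference at 10 h was 0.17 for the 18 glycolytic members and 1.01 for the 10 other HIF targets, beside 0.03 over all genes. The members lower at 6 h were Pfkfb3, Higd1a and Ndrg1, with log2 differences of -0.67, -0.43 and -0.42. Further probe sets did not show the lower level of Pfkfb3, at 0.06, or of Higd1a, at 0.19 and 0.30. Those of Ndrg1 gave -0.33, -0.24, 0.21 and -0.61.

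Leaving out single arrays ended some of these calls. At 10 h, 17 of the 20 held without each of the 4 arrays in turn. Pgam1 did not hold without basal 0 h replicate 1 (adjusted p = 0.0779) or basal 10 h replicate 1 (0.0986), and the glycogen synthase gene Gys1 did not without basal 0 h replicate 2 (0.107) or basal 10 h replicate 1 (0.164). Epas1 failed without any of the 4 (largest adjusted p 0.227, without basal 0 h replicate 2). At 6 h 16 of 20 held, the exceptions being Pgk1, Pdk1, Gys1 and Epas1 with largest adjusted p of 0.125, 0.1, 0.104 and 0.106. At 3 h 7 of 9 held, Slc2a1 (largest adjusted p 0.315, without basal 3 h replicate 2) and P4ha2 (0.248, without basal 0 h replicate 2) being lost. At 1 h neither Hk2 (0.134) nor Ndrg1 (0.0817) held without basal 0 h replicate 1.

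Treated cultures climbed too, and for many members by less. Relative to treated 0 h, 2 members were higher and 1 lower at 1 h, against 2.45% and 1.06% of all genes, and 5 were higher and 5 lower at 3 h, against 7.55% and 8.28%. At 6 h 11 were higher and 5 lower, against 11.2% and 12.8%, and at 10 h 16 were higher and 1 lower, against 14.5% and 13.6%. Without treated 3 h replicate 1 the 3 h counts were 3 higher and 2 lower, without treated 6 h replicate 2 the 6 h count of lower members was 3, and without treated 0 h replicate 2 or treated 1 h replicate 2 the 1 h count of lower members was 0. The member lower at 10 h was Higd1a, whose product sits in the inner mitochondrial membrane, with a log2 difference of -0.32. At 10 h the log2 rise of Bnip3 over 0 h was 2.28 in treated and 2.67 in basal cultures, that of Aldoc 1.52 and 2.63, and that of Ankrd37 1.43 and 2.32. Pdk1 rose by 0.31 with TGFβ1 and by 0.62 without. By contrast, the rise with and without TGFβ1 was 1.07 and 1.09 for P4ha2, 0.74 and 0.84 for Slc2a1, 0.81 and 0.82 for Egln3, and 0.72 and 0.70 for Hk2. Differences between the arms were tested directly at each time, as given further on, since both comparisons with 0 h and the comparison of the arms share arrays.

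**Figure D1:**
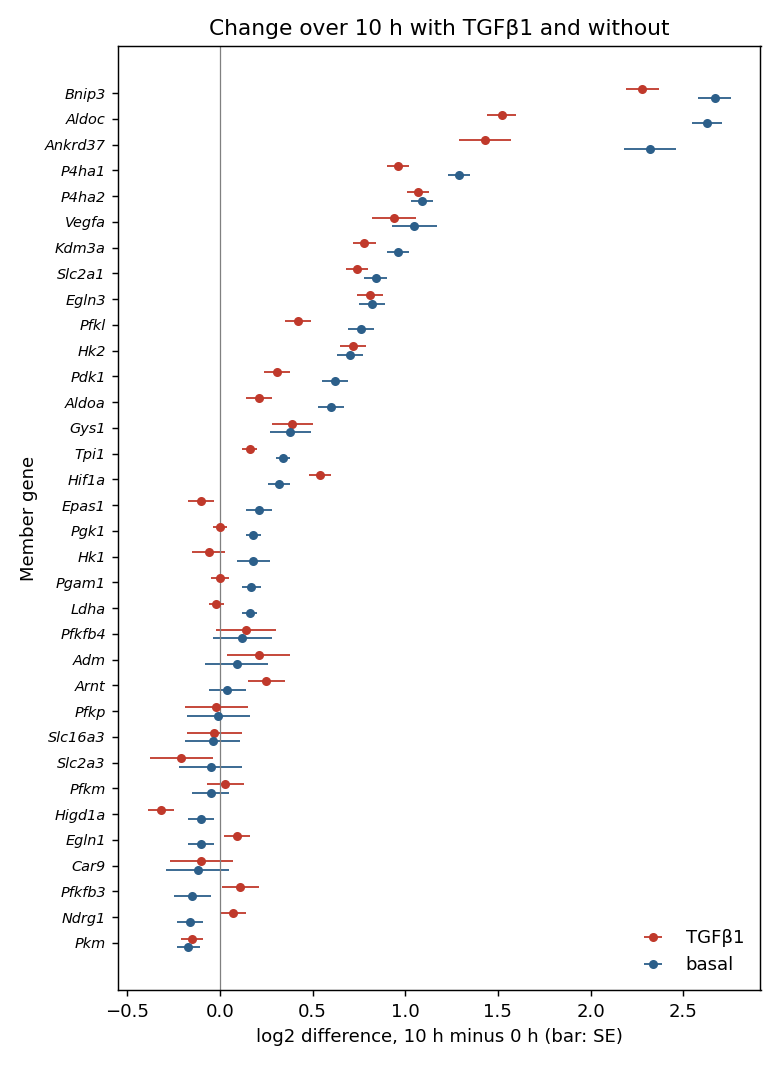
Log2 difference between 10 h and 0 h for the 34 members (x axis) in TGFβ1-treated cultures (upper point of each gene) and basal cultures (lower point), with bars of 1 SE and 2 arrays a group, genes sorted by the basal value. Bnip3, Aldoc and Ankrd37 had log2 rises of 2.28, 1.52 and 1.43 with TGFβ1 and of 2.67, 2.63 and 2.32 without, while P4ha2 had 1.07 and 1.09.

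The promoters of genes that rose in both arms are shown for 4 members with a lower level under TGFβ1, Ankrd37, Bnip3, Aldoc and Pdk1, and for 2 that passed at no time by the probe set used, P4ha2 and Slc2a1, the second probe set of Slc2a1 being lower at 6 h (-0.17). Each is the 250 bases before the RefSeq start in GRCm38.p6, 5′ to 3′ on the gene's strand, and for Aldoc and Pdk1 the entry of 2 with the lower coordinate. Capitals mark the HIF core motif, ACGTG or GCGTG, on either strand, so that CACGT and CACGC are the same motifs read on the other strand.
Ankrd37, chr8:45999851-46000100, minus strand: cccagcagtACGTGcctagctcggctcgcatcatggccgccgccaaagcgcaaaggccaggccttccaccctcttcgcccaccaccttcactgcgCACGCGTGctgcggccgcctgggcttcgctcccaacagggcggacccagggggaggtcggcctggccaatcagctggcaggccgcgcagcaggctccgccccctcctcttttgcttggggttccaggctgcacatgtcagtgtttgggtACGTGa
Bnip3, chr7:138909507-138909756, minus strand: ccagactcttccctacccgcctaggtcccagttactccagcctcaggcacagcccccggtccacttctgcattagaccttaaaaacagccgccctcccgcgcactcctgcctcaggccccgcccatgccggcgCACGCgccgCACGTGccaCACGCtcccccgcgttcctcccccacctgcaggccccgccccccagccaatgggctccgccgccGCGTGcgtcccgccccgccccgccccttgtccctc
Aldoc, chr11:78322823-78323072, plus strand: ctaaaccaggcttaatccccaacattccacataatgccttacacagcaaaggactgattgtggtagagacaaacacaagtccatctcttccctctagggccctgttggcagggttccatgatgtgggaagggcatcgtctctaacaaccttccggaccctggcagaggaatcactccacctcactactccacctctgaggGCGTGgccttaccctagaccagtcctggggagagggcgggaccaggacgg
Pdk1, chr2:71872974-71873223, plus strand: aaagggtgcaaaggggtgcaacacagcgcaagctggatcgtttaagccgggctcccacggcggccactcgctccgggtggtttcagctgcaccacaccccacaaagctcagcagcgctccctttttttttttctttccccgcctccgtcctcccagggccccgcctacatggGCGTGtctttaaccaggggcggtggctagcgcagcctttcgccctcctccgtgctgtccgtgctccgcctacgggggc
P4ha2, chr11:54100674-54100923, plus strand: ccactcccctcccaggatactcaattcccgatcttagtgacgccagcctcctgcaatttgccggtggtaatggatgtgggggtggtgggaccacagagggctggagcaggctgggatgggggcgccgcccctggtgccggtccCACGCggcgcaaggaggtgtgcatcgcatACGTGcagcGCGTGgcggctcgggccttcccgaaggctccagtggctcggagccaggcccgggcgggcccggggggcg
Slc2a1, chr4:119108495-119108744, plus strand: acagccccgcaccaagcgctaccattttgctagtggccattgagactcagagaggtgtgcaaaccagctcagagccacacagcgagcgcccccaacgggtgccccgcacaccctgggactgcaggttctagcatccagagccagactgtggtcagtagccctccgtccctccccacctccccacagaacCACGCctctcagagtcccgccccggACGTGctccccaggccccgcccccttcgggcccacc
In Bnip3 the 2 ACGTG matches are both strands of 1 E-box, CACGTG, which other factors also bind. The core motif stood in all 6 windows shown: Ankrd37, Bnip3, P4ha2 and Slc2a1 had both forms, and Aldoc and Pdk1 had GCGTG alone. Of the entries not shown, that of Pdk1 had neither form and that of Aldoc had GCGTG alone.

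Of the 34 members 31 had a promoter entry, 10 of them several. Either form of the motif was found in 93.5% of these, against 53.6% of the 14452 measured genes with an entry. A gene counted where any of its entries held the motif, so a gene with several entries had more chances to count. The part of the number of entries in these shares was not tested. ACGTG was in 61.3% of members and 22.5% of all genes, and GCGTG in 67.7% and 42.5%. The share was 94.1% of 17 glycolytic members and 100% of 9 other HIF targets. Median GC content was 61.9% in the members' windows and 57.6% in all, and the part of GC content in these shares was not tested. A match of 5 letters is not evidence that HIF binds there.

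Under TGFβ1 the members' balance against basal cultures of the same time was downward from 3 h on. At 1 h 2 of 34 were higher and 0 lower, against 1.91% and 0.324% of all genes, and 1 was lower at an unadjusted p under 0.05. At 3 h 3 were higher and 9 lower, against 6.73% and 8.55%. At 6 h 1 was higher and 15 lower, against 7.77% and 7.96%, and at 10 h 1 was higher and 11 lower, against 5.07% and 4.06%. Median log2 differences of the members were 0.02, -0.08, -0.18 and -0.09 at 1, 3, 6 and 10 h, beside -0.01, -0.02, -0.03 and -0.00 over all genes. Over the 4 times together 3 members were higher and 15 lower in treated cultures, against 10.9% and 11.6% of all genes.

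These counts leaned on single arrays at some times. At 1 h the 2 higher members became 1 without treated 1 h replicate 1 or 2 or basal 1 h replicate 2, and the 0 lower ones became 1, Hk1, without basal 1 h replicate 1. The 9 lower members of 3 h became 5 without treated 3 h replicate 1 or without basal 3 h replicate 1. The 11 of 10 h became 7 without treated 10 h replicate 1 and 5 without basal 10 h replicate 1, and the 1 higher member became 0 without any of the 4. At 6 h 14 of 16 calls held without each of the 4 arrays in turn, against 7 of 12 at 3 h, 4 of 12 at 10 h and 0 of 2 at 1 h. Over the 4 times together 13 of 18 held, the exceptions being Slc2a3, Pfkl, Hif1a, Epas1 and Higd1a.

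**Figure D2:**
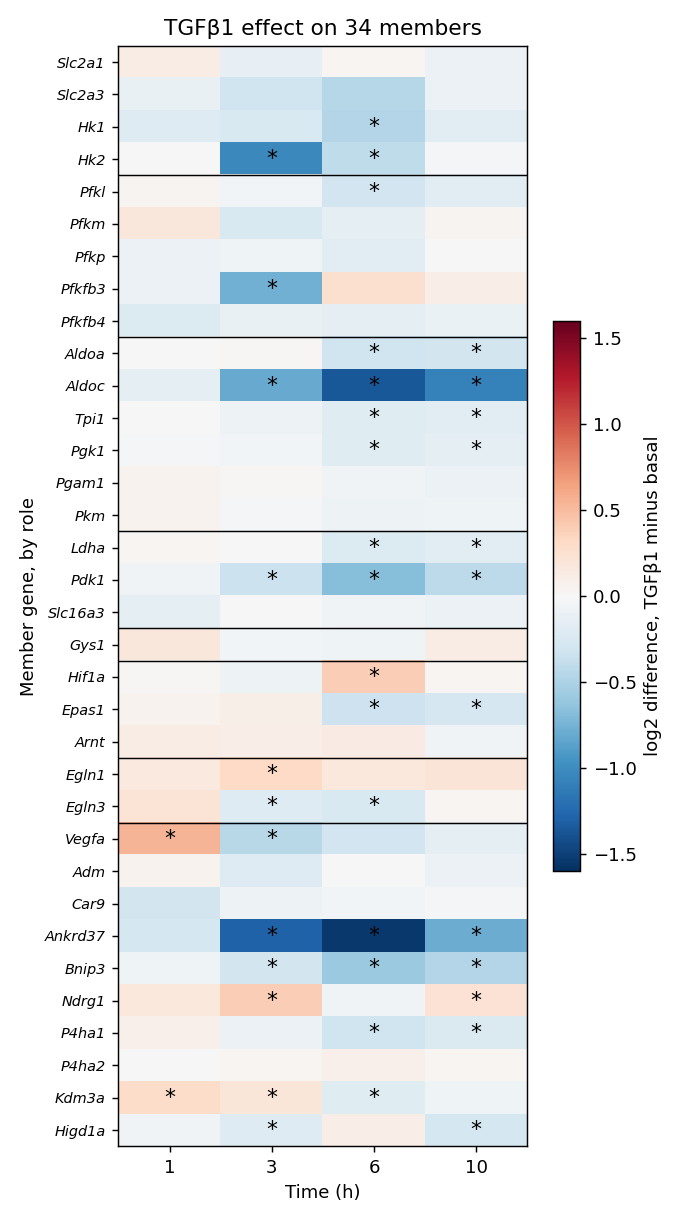
Log2 difference between TGFβ1-treated and basal cultures (colour) at 1, 3, 6 and 10 h (x axis) for the 34 members (rows, in role groups divided by lines), with 2 arrays a group and a star where the adjusted p was under 0.05. Aldoc, Ankrd37, Pdk1 and Bnip3 were lower at 3, 6 and 10 h, Hk2 at 3 and 6 h, and P4ha2 and Slc2a1 carry no star.

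Within glycolysis, lower levels came at several steps. Those lower at 6 h were Hk1, Hk2, Pfkl, Aldoa, Aldoc, Tpi1, Pgk1, Ldha and Pdk1. Of 18 glycolytic members 0 were higher and 4 lower at 3 h, against 6.73% and 8.55% of all genes, 0 and 9 at 6 h, against 7.77% and 7.96%, and 0 and 6 at 10 h, against 5.07% and 4.06%. At an unadjusted p under 0.05 there were 0, 1 and 0 higher ones. Their medians were -0.10, -0.19 and -0.11. Aldoc had the widest gap of these at 6 and 10 h. Its arrays read 8.42 and 8.34 in treated against 9.12 and 9.25 in basal cultures at 3 h, 8.87 and 8.86 in treated against 10.26 and 10.19 in basal ones at 6 h, and 9.65 and 9.76 in treated against 10.77 and 10.80 in basal ones at 10 h. The groups did not overlap at any of these times, and Aldoc was lower 1.75-fold at 3 h (log2 difference -0.81 ± 0.08, SE, adjusted p = 1.47e-07), 2.56-fold at 6 h (-1.36 ± 0.08, 6.88e-11) and 2.11-fold at 10 h (-1.08 ± 0.08, 7.84e-09). The second probe set of Aldoc, with a mean level of 3.29, under the array medians, gave -0.28, -0.55 and -1.01. Aldoa, which encodes the aldolase of most tissues, differed by -0.32 ± 0.07 at 6 h (adjusted p = 0.00131) and -0.29 ± 0.07 at 10 h (0.00621). The 10 h call of Aldoa was lost without treated replicate 1 (adjusted p = 0.144) or basal replicate 2 (0.0584).

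At the entry to the pathway, Hk2 parted from its basal course at 3 h. Treated cultures had 8.71 and 8.76, against 9.77 and 9.76 in basal cultures, a 2.04-fold lower level (log2 difference -1.03 ± 0.07, adjusted p = 1.62e-10). At 1 h the arms had stood close together, with 9.44 and 9.44 in treated and 9.42 and 9.43 in basal cultures (difference 0.01, 95% interval -0.12 to 0.15). The gap was -0.41 ± 0.07 at 6 h (adjusted p = 9.91e-05) and -0.03 at 10 h (-0.17 to 0.10). Its change between 1 and 3 h was -1.04 ± 0.09 (adjusted p = 1.5e-07) and that between 3 and 6 h 0.62 ± 0.09 (0.000312). Hk1, a second hexokinase, was lower at 6 h and passed at no other single time, with -0.47 ± 0.09 (adjusted p = 0.000624), and read -0.25 at 3 h and -0.18 at 10 h. Slc2a1, the main glucose transporter of dividing cells, differed by -0.13, 0.03 and -0.09 at 3, 6 and 10 h, with 95% intervals of -0.26 to -0.00, -0.10 to 0.16 and -0.22 to 0.05. Both further probe sets of Slc2a1 gave -0.17 and -0.22 at 6 h, the first of them past the threshold (adjusted p = 0.0407). Slc2a3, whose mean level lay under the array medians, passed the threshold over the 4 times together (-0.25, adjusted p = 0.0416) and at no single time.

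At the phosphofructokinase step 1 of 5 genes was lower at 3 h, against 8.55% of all genes. A count this small is not read as a result about the step. Pfkfb3, which makes the activator of phosphofructokinase, had 7.19 and 7.44 in treated against 8.15 and 8.03 in basal cultures at 3 h, with no overlap. It was 1.71-fold lower (log2 difference -0.77 ± 0.10, adjusted p = 7.35e-06). At 6 h treated arrays stood above basal ones, 7.95 and 7.95 against 7.72 and 7.67, and the difference of 0.25 ± 0.10 did not pass (adjusted p = 0.11). The change between 3 and 6 h was 1.02 ± 0.14 (adjusted p = 0.000175). The second probe set of Pfkfb3, with a mean level of 5.12, gave 0.06 at 3 h and did not show this lower level. Pfkl, the liver form of phosphofructokinase, was lower at 6 h by -0.31 ± 0.07 (adjusted p = 0.00511). The second and the third probe sets of Pfkl, with mean levels of 7.57 and 5.12, gave -0.04 and -0.27 at 6 h. Pfkm, Pfkp and Pfkfb4 passed at no time, with differences between -0.25 and 0.18.

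Lower down, Tpi1 and Pgk1 were lower at 6 h by -0.19 ± 0.04 each (adjusted p = 0.000959 and 0.00234) and at 10 h by -0.17 and -0.14 (0.0063 and 0.0286). Pgam1 and Pkm, the mutase and pyruvate kinase genes, passed at no time, and at 6 h their intervals were -0.16 to 0.05 and -0.21 to 0.04. Ldha, which makes lactate dehydrogenase, was lower by -0.22 ± 0.04 at 6 h (adjusted p = 0.00017) and by -0.17 ± 0.04 at 10 h (0.0045). Without single 10 h arrays the calls of these 3 genes were lost: Tpi1 without treated replicate 2 (adjusted p = 0.0976) or basal replicate 1 (0.104), Pgk1 without treated replicate 1 (0.3) or basal replicate 1 (0.297), and Ldha without treated replicate 1 (0.0899) or basal replicate 1 (0.0586). Pdk1 encodes the kinase that switches pyruvate dehydrogenase off. It read 9.75 and 9.55 in treated against 10.32 and 10.33 in basal cultures at 6 h, 1.6-fold lower (log2 difference -0.68 ± 0.07, adjusted p = 4.87e-07). Pdk1 was also lower at 3 h (-0.35 ± 0.07, adjusted p = 0.00112) and 10 h (-0.42 ± 0.07, 0.000452), and the second and the third of its probe sets gave -0.92 and -0.71 at 6 h. Gys1 and the lactate exporter gene Slc16a3 passed at no time.

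Among the 10 other HIF targets, 2 were higher and 0 lower at 1 h, against 1.91% and 0.324% of all genes, and 2 and 4 at 3 h, against 6.73% and 8.55%. At 6 h the counts were 0 and 4, against 7.77% and 7.96%, and at 10 h 1 and 4, against 5.07% and 4.06%. Their medians were 0.02, -0.15, -0.13 and -0.13. At an unadjusted p under 0.05, 0 were lower at 1 h and 0 higher at 6 h. Ankrd37 had the widest gap of all members at 3 and 6 h. Its arrays read 6.04 and 6.10 in treated against 7.30 and 7.44 in basal cultures at 3 h, 7.09 and 7.19 in treated against 8.71 and 8.67 in basal ones at 6 h, and 7.62 and 8.17 in treated against 8.87 and 8.51 in basal ones at 10 h. The groups did not overlap, and Ankrd37 was 2.46-fold, 2.93-fold and 1.74-fold lower (log2 differences -1.30, -1.55 and -0.80, each ± 0.14, adjusted p = 8.99e-07, 7.93e-08 and 0.00087). The narrowing of 0.76 between 6 and 10 h did not pass (adjusted p = 0.0579). Bnip3 had 11.31 and 11.12 in treated against 11.78 and 11.84 in basal cultures at 6 h, 1.51-fold lower (-0.59 ± 0.09, adjusted p = 4.49e-05), and -0.47 ± 0.09 at 10 h (0.00127). Its 3 h difference of -0.30 (adjusted p = 0.0248) was lost without any 1 of the 4 arrays, with adjusted p of 0.0844 to 0.124.

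**Figure D3:**
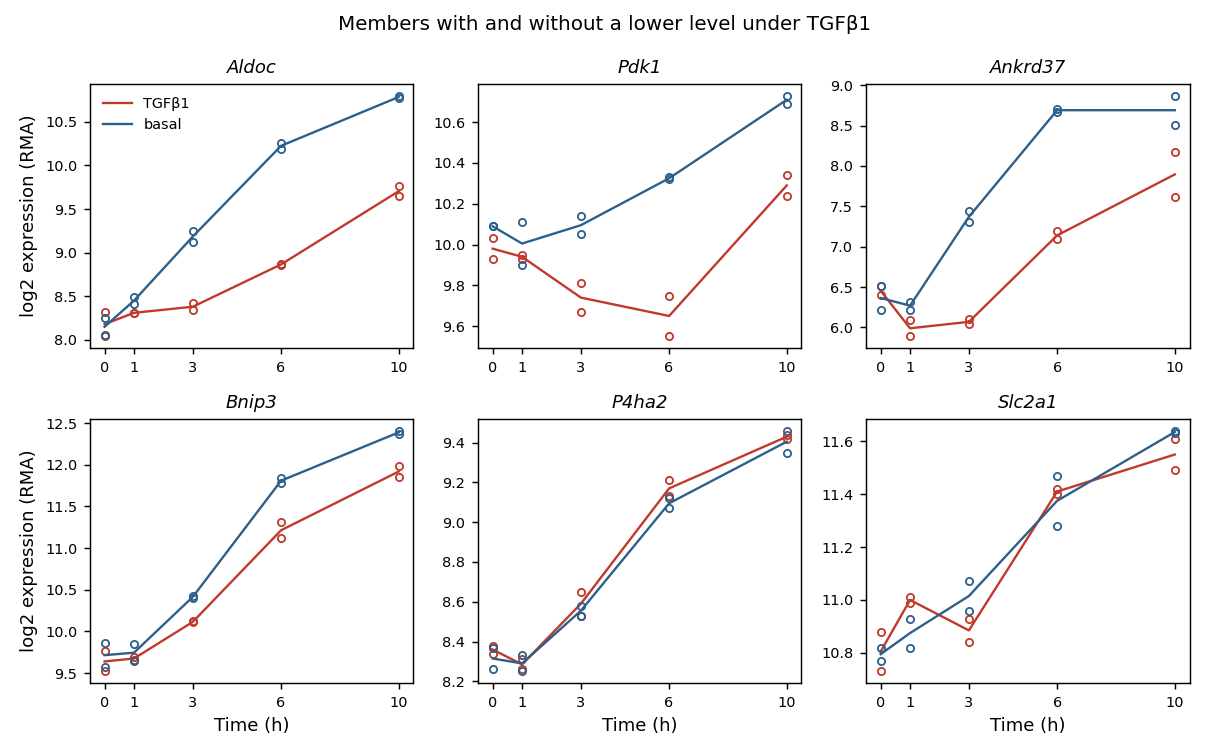
Log2 expression by time in TGFβ1-treated (red) and basal (blue) cultures for 6 members that rose over the 10 h, with a circle for each of 2 arrays and a line through the group means. Aldoc, Ankrd37, Bnip3 and Pdk1 passed the threshold as lower with TGFβ1 from 3 h, with 6 h log2 differences of -1.36, -1.55, -0.59 and -0.68. Those of P4ha2 and Slc2a1 were 0.08 and 0.03. Treated arrays of Aldoc and Ankrd37 stood below basal ones at 1 h too, with differences of -0.14 and -0.28 that did not pass.

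The collagen hydroxylase genes split. P4ha1 was lower in treated cultures by -0.32 ± 0.06 at 6 h (adjusted p = 0.000281) and by -0.23 ± 0.06 at 10 h (0.00963), the 10 h call being lost without treated replicate 1 (adjusted p = 0.0899) or basal replicate 1 (0.17). The second probe set of P4ha1 gave -0.03 and 0.23 at these times. P4ha2 had 9.21 and 9.13 in treated against 9.12 and 9.07 in basal cultures at 6 h, and 9.44 and 9.42 in treated against 9.46 and 9.35 in basal ones at 10 h. Its difference was 0.08 at 6 h (95% interval -0.06 to 0.21) and 0.03 at 10 h (-0.11 to 0.16), so a gap as wide as that of P4ha1 at 6 h lay outside the interval of P4ha2. Adm and Car9, classical HIF targets, had mean levels of 4.84 and 4.15, under the array medians, and passed at no time.

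Vegfa and Kdm3a moved first up and then down relative to basal cultures. Vegfa had 8.46 and 8.26 in treated against 7.98 and 7.66 in basal cultures at 1 h, 1.45-fold higher without overlap (log2 difference 0.54 ± 0.12, adjusted p = 0.0101). At 3 h it was lower, 7.80 and 7.88 in treated against 8.34 and 8.23 in basal cultures (-0.44 ± 0.12, adjusted p = 0.0114), and the change between the times was -0.98 ± 0.17 (0.000479). The 1 h call of Vegfa was lost without treated replicate 1 (adjusted p = 0.203) or basal replicate 2 (0.242), and the 3 h call without treated replicate 1 (0.0916) or basal replicate 1 (0.105), whereas the change between 1 and 3 h held without each of the 8 arrays. Its second probe set gave 0.36 and -0.21. Kdm3a was higher by 0.29 ± 0.06 at 1 h (adjusted p = 0.00459) and 0.19 ± 0.06 at 3 h (0.0372) and lower by -0.20 ± 0.06 at 6 h (0.024). Its treated arrays already stood above basal ones at 0 h, by 0.11 (95% interval -0.01 to 0.23). Treated cultures at 1 h did not pass against their own 0 h (0.18, adjusted p = 0.13). Those Kdm3a calls were lost without treated 1 h replicate 2 (0.12), without any 3 h array (0.108 to 0.165), and without either treated 6 h array (0.099 and 0.106) or basal 6 h replicate 2 (0.355).

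Ndrg1, a gene of growth arrest and hypoxia, was the member lower at both 1 and 3 h in basal cultures relative to 0 h. It had 8.78 and 8.73 in treated against 8.35 and 8.37 in basal cultures at 3 h, having stood at 9.32 and 9.50 in the treated arm and at 9.50 and 9.33 in the basal arm at 0 h. Its level at 3 h relative to 0 h was -0.66 ± 0.07 in treated and -1.05 ± 0.07 in basal cultures, so both arms were lower and the treated one less so (difference 0.39 ± 0.07, adjusted p = 0.000309). At 10 h Ndrg1 was higher by 0.23 ± 0.07 in treated cultures (adjusted p = 0.0407), a call lost without any 1 of the 4 arrays (0.0624 to 0.318). Higd1a was lower by -0.21 ± 0.07 at 3 h (adjusted p = 0.0395) and -0.28 ± 0.07 at 10 h (0.00939). The Higd1a calls were lost without treated 3 h replicate 1 (0.404) or either basal 3 h array (0.0997 and 0.189), and without treated 10 h replicate 2 (0.109) or either basal 10 h array (0.0628 and 0.0708).

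Among the HIF subunits, Hif1a was higher and Epas1 lower at 6 h. Hif1a read 11.98 and 12.02 in treated against 11.56 and 11.65 in basal cultures at 6 h, 1.31-fold higher without overlap (log2 difference 0.39 ± 0.06, adjusted p = 0.000135). It differed by -0.08 at 3 h and 0.03 at 10 h, and the second, the third and the fourth of its probe sets gave 0.12, 0.39 and -0.13 at 6 h. Epas1 was lower by -0.33 ± 0.07 at 6 h (adjusted p = 0.00245) and -0.27 ± 0.07 at 10 h (0.0181), the later call being lost without treated replicate 2 (0.171) or either basal array (0.0718 and 0.138). Arnt passed at no time. Egln1, the main HIF prolyl hydroxylase, was higher at 3 h, 8.70 and 8.65 in treated against 8.36 and 8.35 in basal cultures (0.32 ± 0.07, adjusted p = 0.00194), and over the 4 times together (0.21 ± 0.03, 7.54e-05). The second probe set of Egln1, with a mean level of 8.16, gave 0.18, 0.40, 0.04 and -0.02 at 1, 3, 6 and 10 h. It thus showed the 3 h difference and none of that size at 6 or 10 h. Egln3, itself a HIF target, was lower by -0.21 at 3 h (0.0342) and -0.25 at 6 h (0.0117) and differed by 0.03 at 10 h. Its 1 h difference of 0.22 did not pass (0.127). The second probe set of Egln3, with a mean level of 8.39, gave 0.67, -0.63, -0.51 and 0.16 at 1, 3, 6 and 10 h. The Egln3 calls were lost without any 1 of the 3 h arrays (0.0523 to 0.252) and without treated 6 h replicate 2 (0.203) or basal 6 h replicate 1 (0.12).

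**Figure D4:**
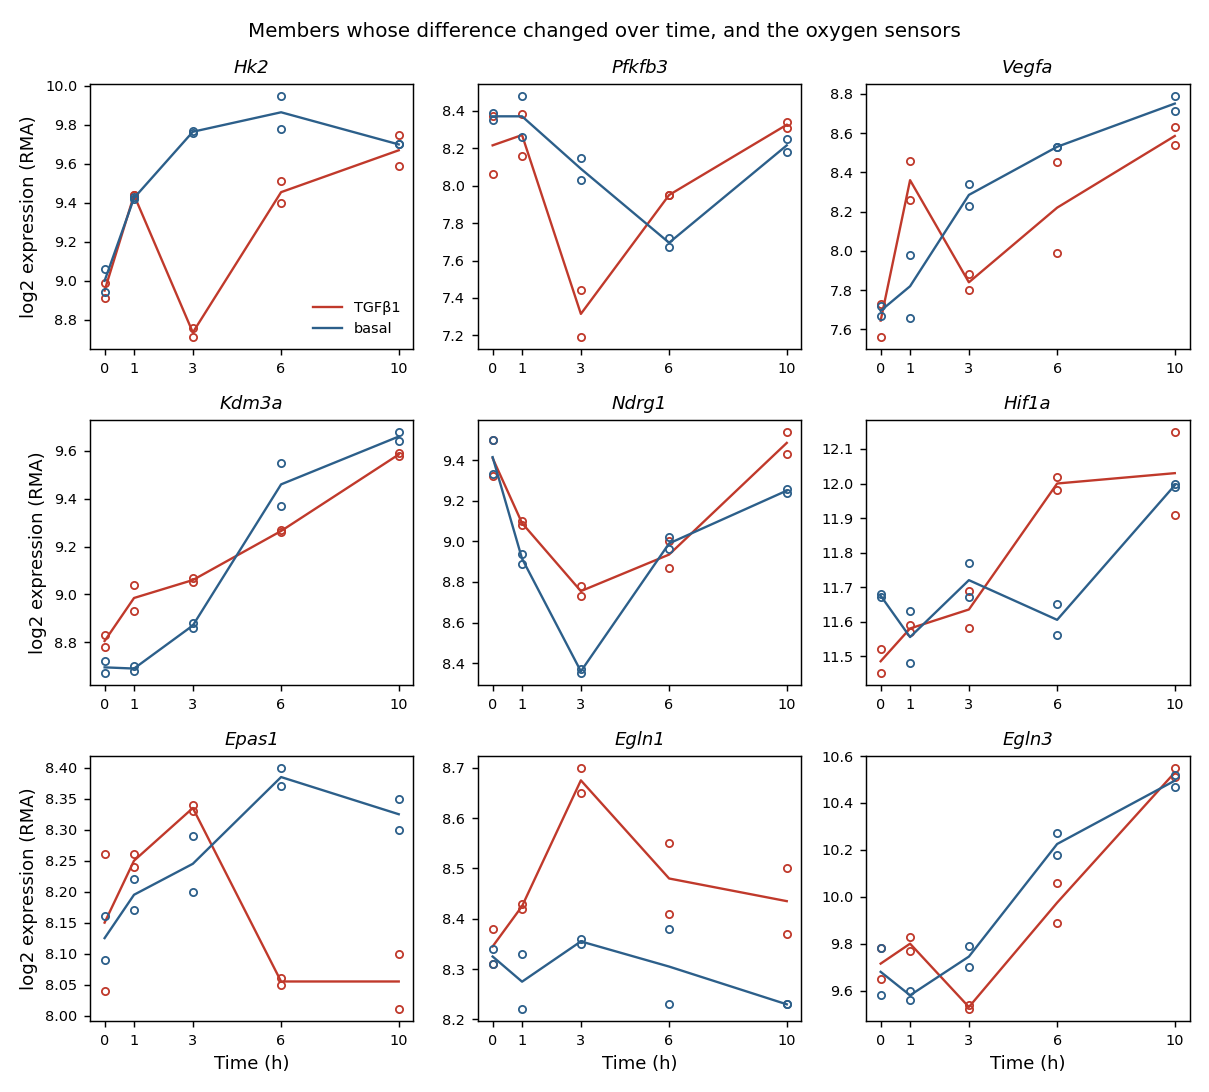
Log2 expression by time in TGFβ1-treated (red) and basal (blue) cultures for 9 members, with a circle for each of 2 arrays and a line through the group means; the y axes differ. Treated Hk2 and Pfkfb3 arrays dip at 3 h, with log2 differences of -1.03 and -0.77, Vegfa stands 0.54 above basal at 1 h and 0.44 below at 3 h, and Hif1a is 0.39 higher at 6 h.

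Changes of the treated-to-basal difference between successive times were tested in their own right. Between 1 and 3 h 0 members moved up and 6 down, against 2.47% and 3.94% of all genes, and 1 moved up at an unadjusted p under 0.05. The 6 were Hk2, Ankrd37, Vegfa, Pfkfb3, Aldoc and Egln3, and all held without each array in turn. Between 3 and 6 h 3 moved up, Pfkfb3, Hk2 and Hif1a, and 6 down, Aldoc, Ndrg1, Epas1, Kdm3a, Aldoa and Ldha, against 2.86% and 1.69%, and the 6 became 3 without treated 6 h replicate 2. Between 6 and 10 h 1 moved up, Hk2, and 2 down, Hif1a and Higd1a, against 1.11% and 1.33%, and none of these 3 held without each of the 8 arrays. From 1 to 10 h 0 moved up, also at an unadjusted p under 0.05, and 5 down, against 1.62% and 2.4%, of which Aldoc (-0.94 ± 0.11, adjusted p = 1.19e-05) held without each array. The other four were Vegfa, Kdm3a, P4ha1 and Ldha, and the count of 5 was as low as 2 without treated 1 h replicate 1, basal 1 h replicate 2 or basal 10 h replicate 2.

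Averaged by array, both groups of members stood lower with TGFβ1 at 3, 6 and 10 h. The mean log2 deviation of the 18 glycolytic members from the 0 h arrays was -0.09 and -0.10 in treated against 0.11 and 0.17 in basal cultures at 3 h. It was 0.01 and -0.01 in treated against 0.25 and 0.30 in basal ones at 6 h, and 0.22 and 0.21 in treated against 0.37 and 0.39 in basal ones at 10 h. For the 10 other HIF targets it was -0.03 and 0.02 in treated against 0.20 and 0.19 in basal cultures at 3 h, 0.48 and 0.38 in treated against 0.72 and 0.72 in basal ones at 6 h, and 0.72 and 0.73 in treated against 0.92 and 0.91 in basal ones at 10 h. Treated and basal arrays did not overlap at these times in either group. The glycolytic means did not overlap at 1 h either, at 0.04 and 0.04 in treated against 0.05 and 0.10 in basal cultures. So 2 arrays a group can stand apart by a small gap. At 6 h the other HIF targets stood above 0 in both arms while the glycolytic mean was near its start in treated cultures. No test was made over the members as a list, and single genes weigh on these means: the medians by array at 6 h were -0.04 and -0.06 in treated against 0.15 and 0.20 in basal cultures for glycolytic members. For other HIF targets the medians were 0.60 and 0.42 in treated against 0.70 and 0.77 in basal cultures at 6 h, and 0.90 and 0.85 in treated against 0.96 and 0.97 in basal ones at 10 h.

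**Figure D5:**
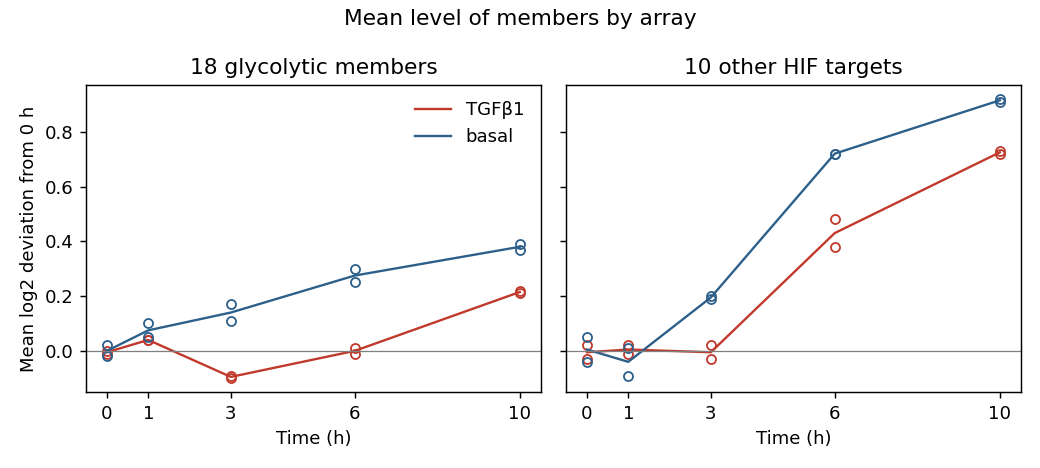
Mean log2 deviation from the 4 arrays of 0 h (y axis) by time for the 18 glycolytic members (left) and the 10 other HIF targets (right) in TGFβ1-treated (red) and basal (blue) cultures, with a circle for each of 2 arrays and a line through their mean. At 10 h treated arrays stood at 0.22 and 0.21 for glycolytic members and 0.72 and 0.73 for other HIF targets, against 0.37 and 0.39 and 0.92 and 0.91 in basal arrays.

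Further HIF targets from the literature, 36 measured genes outside the members, went both ways. At 6 h 10 were higher and 10 lower in treated cultures, against 7.77% and 7.96% of all genes, with a median of -0.03, equal to that over all genes, and at 3 h 9 were higher and 7 lower, against 6.73% and 8.55%. The 4 widest differences at 6 h were those of Bhlhe40, Stc1, Ppp1r3c and Egfr. Bhlhe40, a clock and stress repressor gene, read 11.14 and 11.13 in treated against 8.12 and 8.38 in basal cultures at 1 h, 7.39-fold higher (2.89 ± 0.07, adjusted p = 2.14e-17), and 1.67 ± 0.07 higher at 6 h. Egfr, the EGF receptor gene, was 2.06-fold higher at 6 h (1.04 ± 0.07, adjusted p = 5.43e-10). Stc1, a secreted glycoprotein gene, was 3.08-fold lower (-1.62 ± 0.13, 7.26e-09), and Ppp1r3c, a glycogen-targeting phosphatase subunit gene, was 2.77-fold lower (-1.47 ± 0.10, 3.93e-10), its widest gap being -2.07 at 3 h. In basal cultures Stc1 and Ppp1r3c were higher at 10 h than at 0 h, as Aldoc and Ankrd37 were. Basal arrays of Egfr and Bhlhe40 also stood higher at 10 h. Egfr read 7.63 and 7.53 against 7.27 and 7.22 at 0 h, and Bhlhe40 8.57 and 8.51 against 8.27 and 8.26.

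Around pyruvate, 1 of 13 measured genes was higher and 3 were lower at 6 h, against 7.77% and 7.96% of all genes. Pdk4, a kinase of the same family as Pdk1, had 7.27 and 7.42 in treated against 8.71 and 8.55 in basal cultures at 3 h, 2.44-fold lower (-1.28 ± 0.08, adjusted p = 1.37e-10), and differed by -0.64 ± 0.08 at 6 h. Pcx, pyruvate carboxylase, and Mpc1, of the mitochondrial pyruvate carrier, were lower at 6 h by -0.60 ± 0.12 (0.000973) and -0.40 ± 0.06 (2.46e-05). Dld was higher by 0.18 (0.0448), a call lost without treated 6 h replicate 1 (0.4) or basal 6 h replicate 2.

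Of 19 other glycolytic isoforms and branch enzymes 1 was higher and 4 lower at 6 h, against 7.77% and 7.96% of all genes. The muscle enolase gene Eno3 rose against basal at each time, by 0.57 ± 0.05 at 3 h and 0.72 ± 0.05 at 6 h (adjusted p = 1.49e-08 and 4.94e-10). Tigar, which lowers the phosphofructokinase activator, was lower by -0.63 ± 0.08 at 3 h (3.9e-06) and -0.29 at 6 h (0.0129), and Eno2 (-0.54, 0.0325) and Ldhb (-0.33, 0.0306) were lower at 6 h. The 6 h calls of these 3 were lost without single arrays, Tigar without treated replicate 2 (0.119) or basal replicate 1, Eno2 without either treated array or basal replicate 1 (0.271), and Ldhb without any 1 of the 4 (0.218 at most). Of 7 pentose phosphate genes 0 were higher and 2 lower at 6 h, against the same shares, 1 being higher at an unadjusted p under 0.05. They were Rpia (-0.45 ± 0.06, 8.84e-06) and Tkt (-0.18, 0.0297), the call of Tkt being lost without either treated array or basal replicate 1 (0.229). Of 15 HIF regulators and alternative subunits 0 were higher and 1 lower at 6 h, near or under the 7.77% and 7.96% of all genes. It was Egln2 (-0.23, 0.00724, lost without basal replicate 2 at 0.0674 or treated replicate 1), with 1 higher at an unadjusted p under 0.05. At 3 h Siah2 (-0.38, 0.00984) and Arntl (-0.27, 0.0161) were lower, both calls being lost without treated 3 h replicate 2 or basal 3 h replicate 2 (at most 0.174 and 0.209).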

How the data were processed

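Gene expression was measured on 20 Affymetrix arrays, 1 per culture of Hepa1-6 cells. The deposited values are log2 expression per probe set made by the authors with RMA, per the submitters' processing notes. RMA corrects background, quantile-normalizes arrays and summarises the probes of a set, so differences are relative to the other transcripts. The RMA version and chip description file are not given in the labels or the table. Of 45037 probe sets 34945 had 1 gene symbol in the platform annotation, 932 had several and 9160 none, and those with 1 gave 18193 genes, each read from the probe set with the highest mean (162 names had no RefSeq match).

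Group means were estimated from all 20 arrays together with limma 3.58.1 in R 4.3.3 (10 residual degrees of freedom, eBayes with trend), with Benjamini-Hochberg adjustment over all genes at 0.05. The script was tested on simulated data. Treated and basal cultures were compared at each time, on average over 1, 3, 6 and 10 h, and each arm with its own 0 h. Changes of the treated-to-basal difference between times were also tested. Replicate numbers were not used as pairs, since same-numbered arrays of one time correlated at -0.06 to 0.09 in their deviations. Depth has no meaning for arrays, and 2 arrays a group limit the precision. The members and all gene lists were chosen with earlier results of these data known. Every measured member could be named, values of every array were given for members past the threshold by a log2 difference of at least 0.5, and up to 4 genes were named per added list by their difference at 6 h, then at 3 h. Alternatives changed the normalization, centring, probe set, filter, variance trend, array weights, replicate block, arrays fitted, control arrays and replicates.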

Additional observations from a re-analysis of the deposited data

Results flagged for a closer look

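The difference between treated and basal cultures changed with time for the members named here by limma's test of the change itself, with adjusted p under 0.05 over all genes. Values are changes in the log2 difference, later minus earlier time.

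Between 1 and 3 h the changes were -1.04 for Hk2, -1.02 for Ankrd37, -0.98 for Vegfa, -0.67 for Pfkfb3, -0.67 for Aldoc and -0.43 for Egln3, and all held without each array in turn. Between 3 and 6 h Pfkfb3 moved by 1.02, Hk2 by 0.62 and Hif1a by 0.48, and Aldoc by -0.55, and these held as well. Over the same interval Ndrg1 moved by -0.45, Epas1 by -0.42, Kdm3a by -0.38, Aldoa by -0.34 and Ldha by -0.23. These were lost without single arrays, with largest adjusted p of 0.0617 for Ndrg1 (without treated 6 h replicate 2), 0.0952 for Epas1 (basal 3 h replicate 2), 0.0623 for Kdm3a (basal 6 h replicate 2), 0.153 for Aldoa (basal 6 h replicate 2) and 0.066 for Ldha (treated 6 h replicate 1).

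Between 6 and 10 h Hk2 moved by 0.38, Higd1a by -0.38 and Hif1a by -0.36. All 3 were lost without single arrays, with largest adjusted p of 0.173 for Hk2 (treated 10 h replicate 1), 0.204 for Higd1a (treated 6 h replicate 1) and 0.265 for Hif1a (treated 10 h replicate 2). From 1 to 10 h Aldoc moved by -0.94 and held. Vegfa moved by -0.70, Kdm3a by -0.36, P4ha1 by -0.31 and Ldha by -0.20, and these were lost with largest adjusted p of 0.099 (basal 1 h replicate 2), 0.0788 (treated 1 h replicate 2), 0.173 (basal 10 h replicate 1) and 0.167 (treated 10 h replicate 1).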

How the results depend on the processing

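Over 180 member results past the threshold, none reversed under a further quantile normalization, centring, array weights, every probe set tested, a filter on genes above the median level, no variance trend, only the arrays compared or leaving out an array. Of the 180, no call ended under the replicate block, 1 under array weights, 3 under the quantile normalization, 4 under centring, 13 with every probe set tested, 14 with only the arrays compared, 34 with the mean of probe sets, 39 without the variance trend and 60 with the second probe set. The cause was not tested. Deviations of same-numbered arrays correlated at -0.20 to 0.21, with 5 of 45 pairs of groups over 0.1. Whether arrays with the same replicate number share an origin was not tested. The replicate block gave 2 members higher at 10 h in place of 1, 2 moving up between 6 and 10 h in place of 1, and 1 lower in basal cultures at 10 h in place of 0.

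With the second probe set, reversed log2 values were Pfkfb3 0.06 at 3 h, 0.06 for the change from 1 to 3 h, 0.06 in basal 6 h and 0.02 in treated 3 h against 0 h, Slc2a1 -0.17 at 6 h, P4ha1 0.23 at 10 h and 0.15 on average, Hif1a -0.01 on average and 0.03 for the change from 6 to 10 h, and Higd1a 0.19 in basal and 0.01 in treated 6 h against 0 h. With the mean of probe sets they were P4ha1 0.01 on average and Higd1a 0.02 in basal 6 h.

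Setting treated cells against the 4 pooled 0 h arrays takes the basal time course into the difference by construction. Reversed values were Ndrg1 -0.32 at 1 h. At 3 h they were Aldoc 0.22, Vegfa 0.17, Bnip3 0.44, Ndrg1 -0.66 and P4ha1 0.27. At 6 h they were Hk2 0.48, Pfkl 0.12, Pfkfb3 -0.34, Aldoc 0.70, Gys1 0.28, Egln3 0.28, Vegfa 0.55, Ankrd37 0.73, Bnip3 1.54, P4ha1 0.68, Kdm3a 0.51 and Higd1a -0.30. At 10 h they were Slc2a1 0.75, Hk2 0.70, Pfkl 0.51, Aldoa 0.26, Aldoc 1.54, Tpi1 0.17, Pgk1 0.02, Pdk1 0.26, Vegfa 0.92, Ankrd37 1.48, Bnip3 2.24, P4ha1 1.01 and Kdm3a 0.83. Members higher and lower were then 4 and 1 at 1 h, 16 and 2 at 10 h, and 12 and 7 at 6 h, with 7 higher at 3 h, medians of 0.07 at 6 h and 0.11 at 10 h, 1 lower in basal 10 h, and 4 higher in treated 1 h and 2 lower in treated 10 h against 0 h. Shares over all genes were not counted under this setting or the other alternatives. The counts under them are therefore not read as results about the members.

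Other counts moved as follows. Members higher at 1 h were 1 with the second probe set, no variance trend or only the arrays compared, and the second probe set gave a 1 h median of 0.05. At 6 h 0 were higher with the mean of or second probe set, and the mean gave a median of -0.14. At 10 h 0 were higher with quantile normalization, centring, the mean of, second or every probe set, or no trend, 2 with the filter or array weights, and 6 were lower with no trend. Between 3 and 6 h 2 moved down with the mean of probe sets or no trend. Between 6 and 10 h 0 moved up with every probe set, no trend or only the arrays compared, 2 with the filter, and 0 moved down with the mean of, second or every probe set or no trend. From 1 to 10 h 3 moved down with the second probe set, 8 with the filter and 1 with no trend. In basal cultures at 1 h 0 were higher with no trend or only the arrays compared, and 0 lower with these or the mean of or second probe set. Only the arrays compared gave 2 lower at 3 h and, like the filter and array weights, 1 lower at 10 h. The second probe set gave 11 higher and 1 lower at 6 h. In treated cultures against 0 h, the second probe set gave 0 lower at 1 h, 3 lower at 3 h and 7 higher at 6 h. No trend gave 3 lower at 3 h, only the arrays compared 3 higher at 3 h and 2 lower at 10 h, and the mean of probe sets 0 lower at 10 h.

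Leaving out 1 array at a time, members higher in treated cells numbered 1 to 2 at 1 h, 2 at 3 h, 1 at 6 h and 0 at 10 h, and members lower 0 to 1, 5 to 7, 14 to 15 and 5 to 8. Medians were -0.01 to 0.03, -0.09 to -0.07, -0.21 to -0.16 and -0.13 to -0.08. Over the 4 times 2 to 3 were higher and 12 to 15 lower. Changes numbered 0 up and 6 to 7 down from 1 to 3 h, 3 to 4 up and 3 to 5 down from 3 to 6 h, 0 to 1 up and 0 to 2 down from 6 to 10 h, and 2 to 5 down from 1 to 10 h. Against 0 h, higher and lower members were 0 to 1 and 0 to 1 in basal 1 h, 6 to 7 and 1 at 3 h, 13 to 16 and 3 at 6 h, and 17 to 19 and 0 to 2 at 10 h. In treated cultures they were 2 and 0 to 1, 3 to 5 and 2 to 5, 10 to 12 and 3 to 6, and 15 and 1. Probe sets under the array medians, 5 members among them, carry little signal over background and limit what could be seen.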
